A study of Mus musculus with 3 samples.

Results

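Ccl25, Ccl20, Ccl6, Il18, Nlrp6, Lypd8, Dmbt1 and Pigr are 8 genes with which the intestinal epithelium recruits leukocytes and keeps microbes at a distance. They were found by their symbols in the gene list of a single-cell RNA sequencing (scRNA-seq) experiment, where they are 8 of 51912 genes. All 8 had transcripts in every library. 2 libraries came from mice with the genotype VillinCreERT2, Arid3a fl/fl (Arid3a cKO 1 and Arid3a cKO 2) and 1 from a VillinCreERT2 control (WT). In these mice a Cre recombinase that needs tamoxifen is made under the Villin promoter, which is active in intestinal epithelial cells, so that deletion of Arid3a is aimed at these cells. All mice carried the recombinase and received tamoxifen at an age of 8 to 10 weeks, and tissue was taken 1 month after the first dose. Cells were released from isolated crypts and sorted as DAPI-negative, Epcam-positive, CD45-negative and CD31-negative. How many mice each library holds is not given in the sources used here. The question addressed here is how far the levels of these genes differed between Arid3a cKO and WT epithelium, and in which cells.

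Chemokines are small secreted proteins that draw in cells with the matching receptor. Ccl25 calls lymphocytes that carry Ccr9 to the small intestine, Ccl20 calls Ccr6-bearing dendritic cells and lymphocytes to the epithelium that covers lymphoid follicles, and Ccl6 acts on myeloid cells through Ccr1. Il18 is a cytokine that is stored as an inactive precursor and cut by inflammasome caspases, and Nlrp6 is an inflammasome sensor of the gut epithelium. Lypd8 binds flagellated bacteria and keeps them off the epithelial surface, Dmbt1 is a secreted scavenger receptor protein that aggregates bacteria, and Pigr carries dimeric IgA and pentameric IgM across the epithelial cell into the lumen.

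The filters on genes per cell (at least 1000) and on mitochondrial transcripts (at most 15%) left 2134, 1550 and 1910 cells with a median of 31391.5, 35764 and 29895 unique molecular identifiers (UMIs, 1 per captured transcript) in Arid3a cKO 1, Arid3a cKO 2 and WT. These cells held 70922480, 58169310 and 62694008 UMIs in all, and 0 to 2 barcodes were shared between any pair of libraries. Below, 3 values in a row follow this order. Cells were clustered without the 8 genes, and the clusters were named from marker genes as intestinal stem cell (ISC)-like, transit-amplifying (TA)-like, enterocyte-like, goblet-like, Paneth-like, enteroendocrine-like and tuft-like. A cluster of 736 cells (336, 195 and 205) held no sufficient set of markers, stayed unnamed and is called the Krt19 cluster after one of its leading genes. Its leading genes also included Edn2, Car4, Mal2 and Bmp3. Markers of other cell types were few among the transcripts: over all cells, 9 markers of B and plasma cells summed to at most 1.85 CPM (UMIs of a gene per 1000000 UMIs of the same cells) and 10 endothelial and stromal markers to at most 4.64 CPM, and 12 myeloid markers to 12.1, 14.1 and 15.1 CPM. The 13 T cell markers found in the gene list summed to 3.45, 14.7 and 23.2 CPM, and 1, 2 and 7 cells held at least 2 Cd3 UMIs. Arid3a itself was at 0.592, 0.894 and 2.57 CPM (42, 52 and 161 UMIs), a log2 fold change of -1.76 (SE 0.29, adjusted p = 0.0401, edgeR quasi-likelihood test), which lost the threshold with DESeq2 (adjusted p = 0.164) and with wider limits on cells (adjusted p = 0.0929). The deleted exons are not given in the sources used here, so a 3′ tag of Arid3a need not lie in the deleted part.

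In the GENCODE M21 annotation of GRCm38, which holds 99.5% of the gene identifiers in the deposited list, the 8 genes are all protein-coding. Ccl25 lies at chr8:4325210-4360020, Ccl20 at chr1:83116766-83119167, Il18 at chr9:50554827-50581840, Nlrp6 at chr7:140920902-140929192, Lypd8 at chr11:58379043-58390728, Dmbt1 at chr7:131032053-131121630 and Pigr at chr1:130826684-130852249, all on the plus strand. Ccl6 lies at chr11:83587882-83593087 on the minus strand. No gene overlaps them on the same strand, whereas Elavl1 overlaps Ccl25, E230016K23Rik overlaps Ccl6, Bco2 and Tex12 overlap Il18, and Fgfr2 overlaps Dmbt1 on the opposite strand. The last 400 bases of the Ccl6 transcript matched Slc17a4 over 177 bases (81.4% identity), those of Nlrp6 matched Gm40557 over 107 bases (79.4% identity), and the other 6 genes had no match in another gene.

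Ccl20 and Nlrp6 were the 2 genes of the 8 that passed the test in at least 1 of the cell classes compared below. The 250 bases before their start sites in RefSeq (GRCm38.p6, plus strand) are shown with capitals marking the 1 match to the NF-kB consensus, the binding site of the transcription factor family that switches on many inflammatory genes.
Ccl20 promoter (chr1:83116516-83116765): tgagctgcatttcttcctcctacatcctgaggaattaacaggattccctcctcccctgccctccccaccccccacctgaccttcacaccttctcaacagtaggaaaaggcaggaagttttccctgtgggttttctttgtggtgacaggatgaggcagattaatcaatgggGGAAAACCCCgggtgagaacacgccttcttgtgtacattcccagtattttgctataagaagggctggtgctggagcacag
Nlrp6 promoter (chr7:140920652-140920901): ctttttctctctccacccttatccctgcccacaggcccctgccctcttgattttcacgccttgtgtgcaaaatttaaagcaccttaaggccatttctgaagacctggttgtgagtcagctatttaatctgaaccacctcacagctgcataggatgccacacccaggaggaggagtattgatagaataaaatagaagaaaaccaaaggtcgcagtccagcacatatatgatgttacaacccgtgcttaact
The Ccl20 match, GGAAAACCCC as read on the plus strand, lies 80 to 71 bases before the start and fits the consensus on the minus strand, and it overlaps no other motif searched. The consensus was found on either strand in 7.25% of 32851 promoter windows of this length, and in none of the other 6 members with an entry (Dmbt1 had none). TTCNNNGAA, the palindrome bound by STAT factors, was in 7.02% of windows and in no member. ATTAAA, an A+T-rich hexamer of the kind bound by ARID3A, was in 12.7% of windows and, among the members, in that of Nlrp6 (129 to 124 bases before the start, minus strand). TATAAA was in 12.4% of windows and in those of Ccl25 and Il18. A match is a run of letters and was not tested as a binding site.

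The 8 genes fell into 3 patterns across the epithelium. Ccl25, Il18, Nlrp6 and Pigr were highest in enterocyte-like cells and the Krt19 cluster, Ccl20 and Dmbt1 were high in ISC-like and TA-like cells and the Krt19 cluster and low in enterocyte-like cells, and Ccl6 was a transcript of secretory cells, with levels of at least 780 CPM in goblet-like and Paneth-like cells and of at most 24 CPM in the other named classes and the Krt19 cluster in every library. Lypd8 combined the first pattern with a high level in goblet-like cells. 7 of the 8 genes were lowest in Paneth-like or tuft-like cells in each library, and Ccl6 was the exception. Tuft-like cells of Arid3a cKO 2 (20 cells) stood apart from the other libraries with higher levels of 7 genes, Ccl6 being the exception. Among these were Dmbt1 (51.6, 558 and 142 CPM), Lypd8 (331, 1215 and 334 CPM) and Ccl20 (2.35, 51.2 and 2.18 CPM, from 1, 21 and 1 UMIs). In Arid3a cKO 2, 3 of these cells had doublet scores in the top 5% of their library, and they held 20 of the 21 Ccl20 UMIs and 428 of the 498 Lypd8 UMIs. Without the cells of such scores, 3, 3 and 4 in the 3 libraries, Lypd8 read 269, 289 and 262 CPM, and Il18 had 0 UMIs in Arid3a cKO 2, whereas Dmbt1 (9.19, 202 and 17.9 CPM) was still high there.

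**Figure D1:**
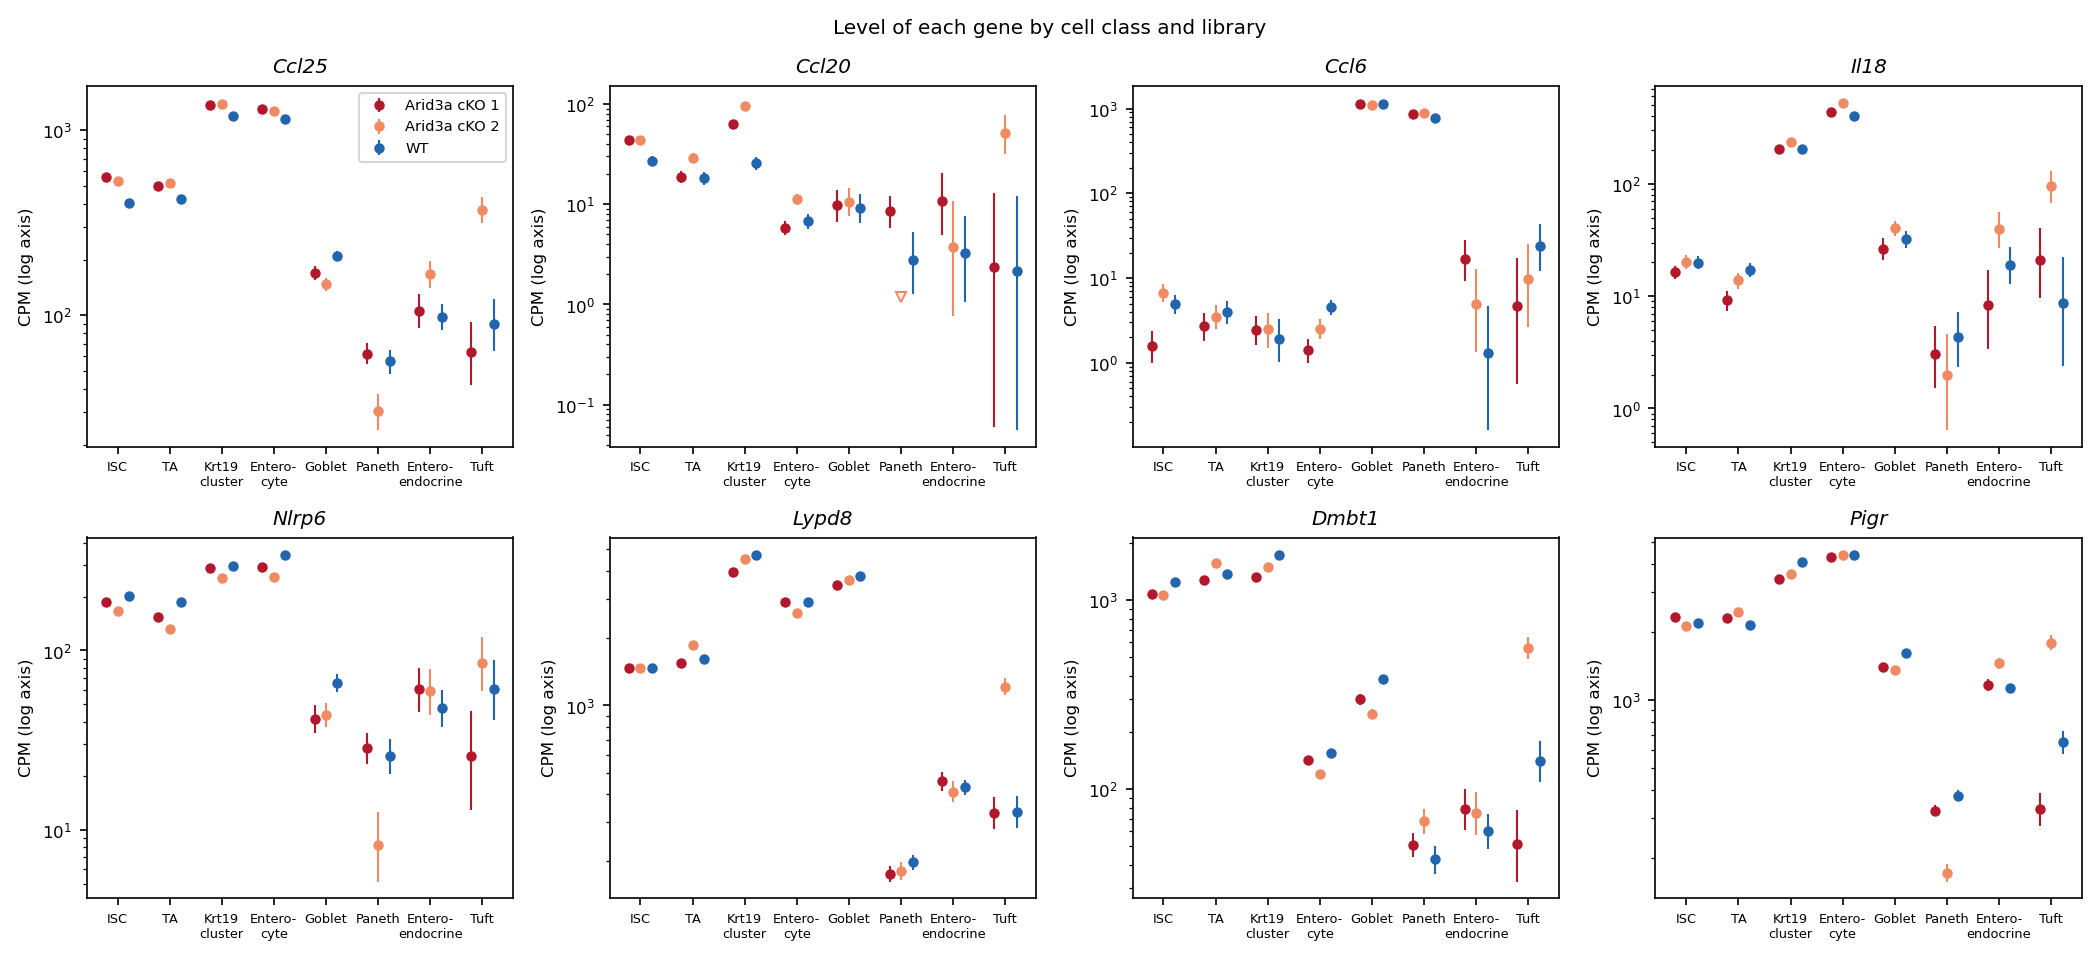
Level of each gene (CPM, log axis) in 8 cell classes of each library. Points are the CPM of 1 library, bars are 95% Poisson intervals of counting error, and the open triangle is the limit that a count of 0 allows. Ccl6 stands above 700 CPM in goblet-like and Paneth-like cells alone, and Ccl20 of the Krt19 cluster reads 62.7, 96.7 and 25.7 CPM.

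Arid3a cKO and WT were compared on UMIs summed per library with edgeR's quasi-likelihood test and Benjamini-Hochberg adjustment over all genes tested. With 2 libraries against 1, the lone WT library is assumed to vary like the cKO libraries, and p-values measure the spread between these libraries. Over all epithelial cells 0 of the 8 members were called at an adjusted p under 0.05, where 0.564% of 16670 genes were (3 members had an unadjusted p under 0.05, and DESeq2 called Ccl20). In enterocyte-like cells 0 of 8 were called against 1.69% of 12589 genes (3 with an unadjusted p under 0.05, 0 called by DESeq2). In ISC-like and TA-like cells together 1 of 8 (Ccl20, higher) was called against 1.18% of 14450 genes. In goblet-like cells 1 of 8 (Nlrp6, lower) was called against 1.02% of 11051 genes. In the Krt19 cluster, a comparison added after the clusters had been seen, 0 of 8 were called against 0.565% of 11326 genes (2 with an unadjusted p under 0.05, 0 called by DESeq2). The median log2 fold change of the 8 members was 0.05, -0.05, -0.01, -0.16 and 0.03 in these 5 comparisons, beside -0.003, 0.005, 0.0, 0.005 and 0.002 over all genes tested. Of all genes tested, 1812, 1656, 1087, 976 and 1115 had an unadjusted p under 0.05 (edgeR) in the same order.

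A second description used no test. A gene was called separated where its log2 ratio of CPM + 5 to WT reached 0.5 or more, or -0.5 or less, in each cKO library alike, among genes of at least 20 CPM on average. Ccl20 was separated upwards over all epithelial cells (1 of 8 members, 1.07% of 5336 genes) and in the Krt19 cluster (1 of 7 members at that level, 1.17% of 5119 genes). Over all epithelial cells it reached 20 CPM on average through the cKO libraries, with WT at 14.5 CPM. Nlrp6 was separated downwards in goblet-like cells (1 of 7, 1.52% of 5009 genes). No member was separated in enterocyte-like cells (0 of 6, 1.61% of 4720 genes) or in ISC-like and TA-like cells (0 of 6, 0.856% of 5605 genes).

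**Figure D2:**
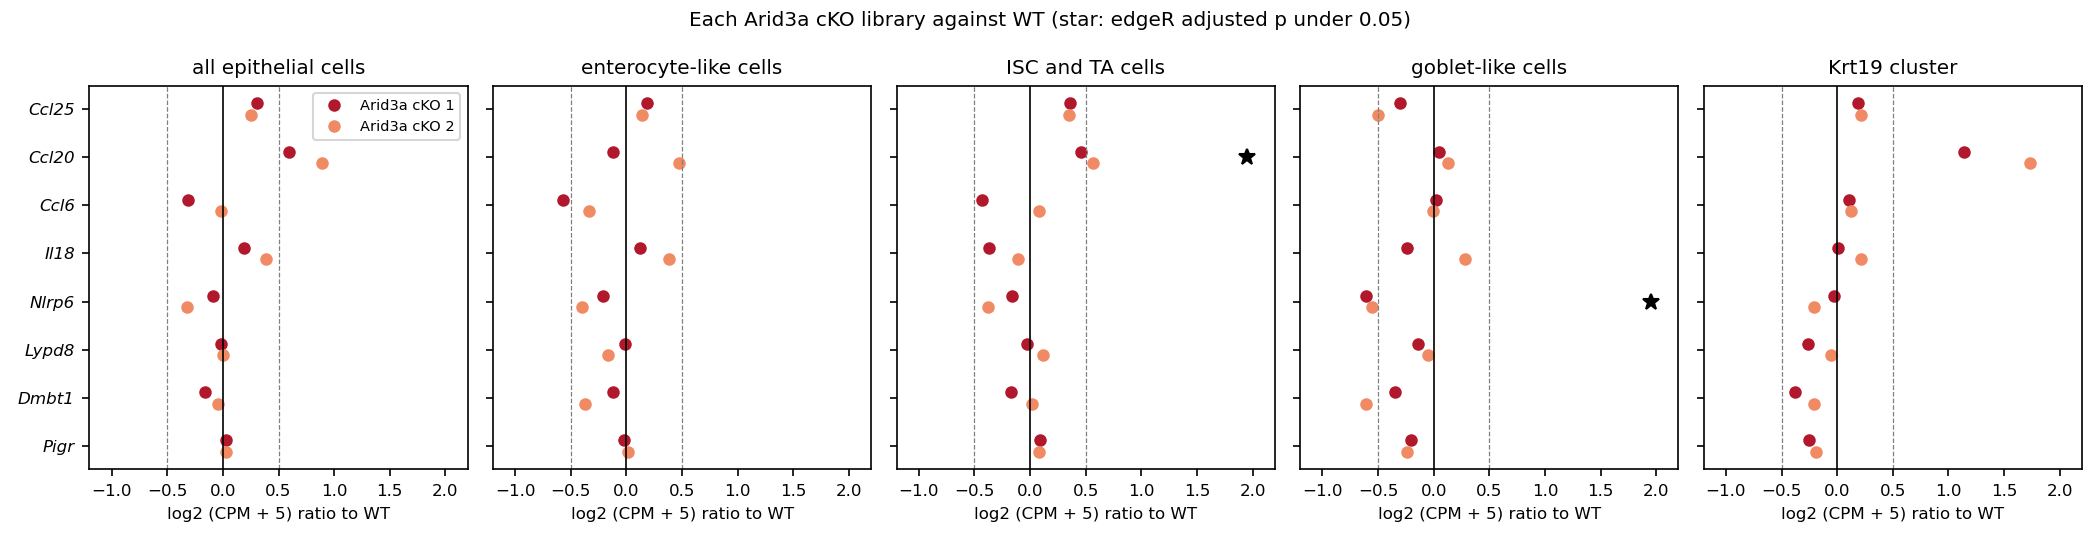
Log2 ratio of CPM + 5 in each Arid3a cKO library to WT for the 8 genes in 5 comparisons. Dashed lines mark 0.5 in either direction, and stars mark an edgeR adjusted p under 0.05. The Ccl20 points of the Krt19 cluster stand at 1.14 and 1.73, and both Nlrp6 points lie at or below -0.03 in each panel.

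Ccl25, the ligand of Ccr9, was highest in the Krt19 cluster at 1369, 1390 and 1203 CPM. Enterocyte-like cells were next at 1303, 1271 and 1149 CPM. The ranges of these 2 classes overlapped, as did those of ISC-like cells (559, 536 and 403 CPM) and TA-like cells (499, 522 and 426 CPM), while the first pair lay above the second in every library. At a common depth of 21000 UMIs per cell, all enterocyte-like cells held a Ccl25 UMI, with a mean of 27.7, 26.9 and 24.5 UMIs per cell. Goblet-like cells had 170, 147 and 210 CPM, and 54.3%, 50.6% and 61.9% of them held a UMI.

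Ccl25 was higher in both cKO libraries than in WT in ISC-like, TA-like and enterocyte-like cells and in the Krt19 cluster, but passed the test in none of the comparisons. Over all epithelial cells it stood at 907, 865 and 728 CPM, a log2 fold change of 0.32 (SE 0.1, adjusted p = 0.289, edgeR). In ISC-like and TA-like cells it stood at 533, 529 and 414 CPM, a log2 fold change of 0.36 (SE 0.16, adjusted p = 0.448, edgeR). Within the enterocyte-like clusters, the one led by Ms4a18 (772 cells) had 1546, 1557 and 1344 CPM, and the one led by S100g (526 cells) had 1058, 1014 and 833 CPM. In the cluster led by Dnase1 (927 cells) the values were closer, at 1188, 1198 and 1128 CPM, and in the small cluster led by Isg15 (59 cells) the order was the reverse, at 1077, 1068 and 1093 CPM, with overlapping counting intervals.

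Ccl20, the ligand of Ccr6, gave the largest difference of the 8 genes over all epithelial cells and in the Krt19 cluster. Over all epithelial cells it was at 24.4, 31.1 and 14.5 CPM (1728, 1807 and 910 UMIs), 1.91-fold higher in the mean of the cKO libraries than in WT. Both cKO libraries lay above WT, with a log2 fold change of 0.97 (SE 0.17) and an adjusted p of 0.11 in edgeR. DESeq2 gave an adjusted p of 0.000269 and edgeR without TMM factors 0.0301. The Krt19 cluster, where Ccl20 was high, made up 15.75%, 12.58% and 10.73% of the cells, and the part of this share in the difference over all cells was not tested.

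Although the 8 genes were left out of the clustering, Ccl20 led the genes of the Krt19 cluster. By class, Ccl20 was highest in the Krt19 cluster of both cKO libraries, whereas in WT its levels in the Krt19 cluster (25.7 CPM, 95% Poisson interval 22 to 29.8) and in ISC-like cells (27.2 CPM, 24.3 to 30.4) did not differ beyond counting error. In the cKO libraries the Krt19 cluster reached 62.7 CPM (58.1 to 67.7) and 96.7 CPM (89.9 to 104). The mean of these was 3.11-fold above WT, with a log2 fold change of 1.65 (SE 0.38) and an adjusted p of 0.404 in edgeR. Both cKO libraries lay far above WT, and also apart from each other. DESeq2 gave an adjusted p of 0.27. In edgeR without the low-count filter the adjusted p was 2.28e-12.

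In ISC-like and TA-like cells together Ccl20 rose from 22.8 CPM in WT to 33.2 and 36.2 CPM in the cKO libraries, with a log2 fold change of 0.61 (SE 0.15, adjusted p = 0.0074, edgeR). Both cKO libraries lay above WT. The call was lost with DESeq2 (adjusted p = 0.795) and without TMM factors (adjusted p = 0.122). ISC-like cells alone stood at 44.3, 43.8 and 27.2 CPM, with no overlap of counting intervals between cKO and WT. TA-like cells stood at 18.8, 29.1 and 18.1 CPM, so that Arid3a cKO 1 was within counting error of WT there. Endothelial and stromal markers summed to 0.321, 11.9 and 0.351 CPM in ISC-like and TA-like cells together, high in Arid3a cKO 2, and their part in the Ccl20 difference was not tested.

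Enterocyte-like cells held little Ccl20, at 5.81, 11.3 and 6.76 CPM. The high value of Arid3a cKO 2 came from the Ms4a18-led cluster (9.73, 22.9 and 5.84 CPM), in which a single cell held 110 of its 163 UMIs (67.5%). In the Dnase1-led cluster the order was the opposite, with 2.45, 3.34 and 5.4 CPM. When the 4 enterocyte-like clusters were given equal weight, both cKO libraries lay below WT, at 4.32, 8.96 and 9.93 CPM. Goblet-like cells stood at 9.81, 10.6 and 9.27 CPM, with overlapping counting intervals, and Paneth-like cells of Arid3a cKO 2 held 0 UMIs, which allows up to 1.18 CPM.

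Cells with many Ccl20 UMIs made up a larger share of the Krt19 cluster in both cKO libraries than in WT. At 21000 UMIs per cell, 31.3%, 38.3% and 24.4% of the cells in the Krt19 cluster held at least 1 Ccl20 UMI, and these exact binomial intervals overlapped between Arid3a cKO 1 (26 to 36.9%) and WT (18.3 to 31.5%). Before thinning the shares were 34.5%, 43.6% and 32.7%. Enterocyte-like cells gave 8.96%, 6.33% and 7.46% at the same depth, and goblet-like cells 8.57%, 14.5% and 11.9%. Free RNA was not modelled, and its part in these shares was not tested. Cells with 5 or more UMIs, a limit set after the data were seen, were 27 of 294 (9.18%, 6.14 to 13.1%), 30 of 180 (16.7%, 11.5 to 22.9%) and 3 of 176 (1.7%, 0.353 to 4.9%). The intervals of both cKO libraries lay above that of WT. In ISC-like cells the same shares were 5.25%, 5.26% and 3.09%, with overlapping intervals.

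**Figure D3:**
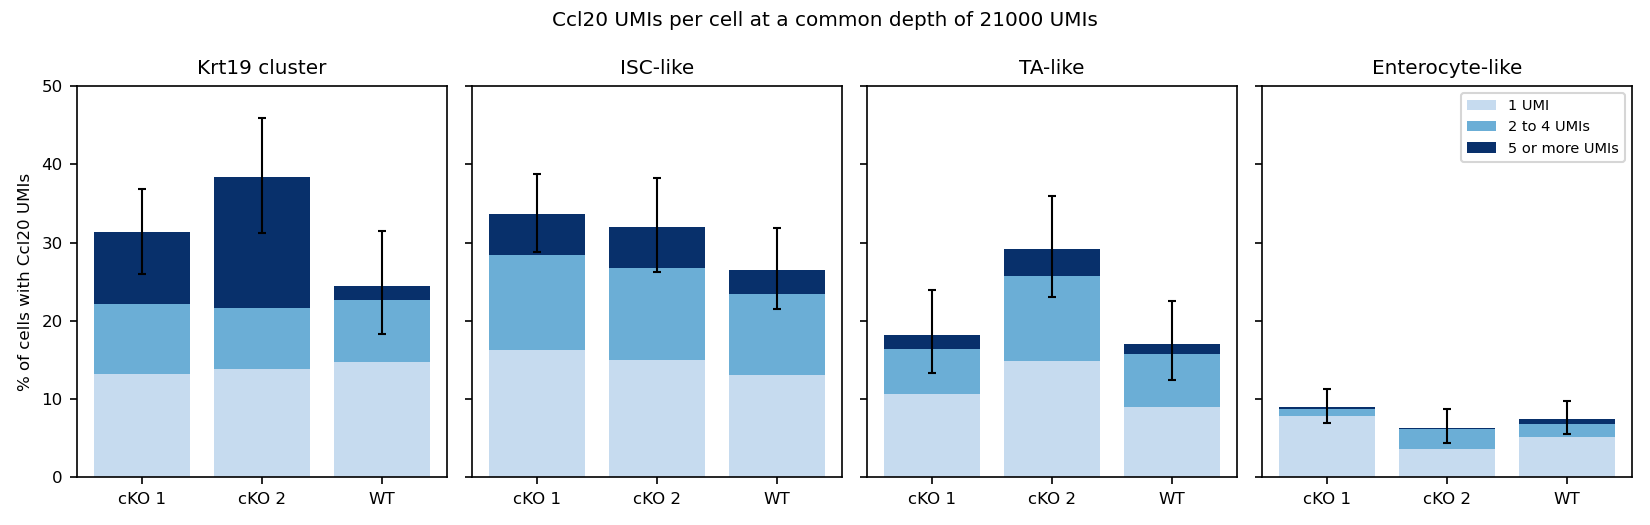
Share of cells (%) with 1, 2 to 4, and 5 or more Ccl20 UMIs after each cell was thinned to 21000 UMIs. Stacked bars are 1 library each, and error bars are exact 95% binomial intervals of the share with any UMI. The darkest part of the Krt19 cluster is 9.18%, 16.7% and 1.7%, whereas the share with 1 UMI is alike in the 3 libraries.

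The Ccl20-rich cells of the Krt19 cluster shared other transcripts. Before thinning, 39, 38 and 9 cells (11.6%, 19.5% and 4.39%) held 5 or more Ccl20 UMIs, with a median of 31074, 39354 and 40031 UMIs against 31365, 35852 and 29303 in the rest of the cluster. In WT the Ccl20-rich cells were thus deeper than the rest, and the part of depth was not tested. Genes were kept by their mean in the Ccl20-rich cells only (20 CPM or more), a limit that favours genes higher there. For the 5149 genes kept, log2 ratios of CPM + 5 were taken between these cells and the rest of their own library. Ranked by the smallest of the 3 ratios, Tnfaip3 came first. Tnfaip3, which encodes the NF-kB inhibitor A20, stood at 41.2 against 12.9 CPM in Arid3a cKO 1, at 26.7 against 11.4 CPM in Arid3a cKO 2 and at 28.1 against 11.7 CPM in WT. Edn2, Rhbdf2, Acot7 and Gm15848 followed, and Ccl28, another epithelial chemokine, ranked 15. Tnfaip3, Rhbdf2 and Gm15848 were under 20 CPM in the rest of the cluster in every library. The NF-kB family genes Nfkbiz, Relb and Nfkbia, the last of which encodes the inhibitor IkBα, ranked 27, 29 and 48. Nfkb1, of the same family, ranked 3961 and was lower in the Ccl20-rich cells of WT. Of the 12 genes of the list of cytokine receptors and NF-kB signalling at this level, 5 were higher in the Ccl20-rich cells of all 3 libraries and 1 (Il10rb) was lower, beside 872 of 5149 genes (16.9%) higher and 713 lower. The cells were chosen by their Ccl20 count, so these values are a description, and WT rests on 9 cells.

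**Figure D4:**
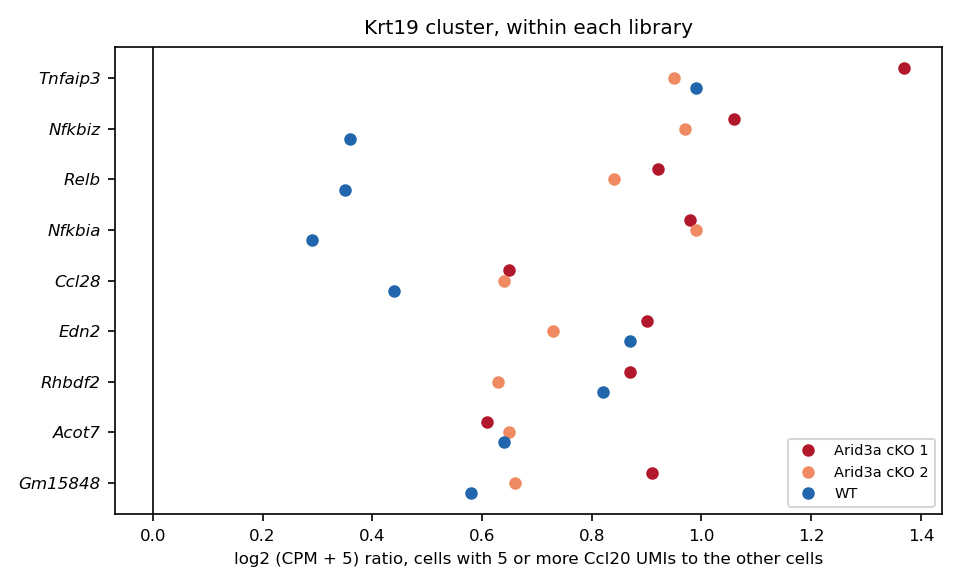
Log2 ratio of CPM + 5 between cells with 5 or more Ccl20 UMIs and the other cells of the Krt19 cluster, within each library. Each point is 1 library. The 9 genes were picked with these ratios known, so their place above 0 in every library follows from the choice. Nfkbia reads 0.98, 0.99 and 0.29, and Nfkb1, which is not drawn, reads 0.05, 0.59 and -0.32.

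Ccl6 differed little between groups in the cells that held it. Goblet-like cells stood at 1144, 1116 and 1126 CPM, a log2 fold change of 0.0 (SE 0.13, adjusted p = 0.999, edgeR), the smallest difference of the 8 genes in that class. Paneth-like cells (34, 17 and 29 cells) stood at 874, 890 and 780 CPM. At 21000 UMIs, 71.4%, 71.1% and 69% of goblet-like cells and 96.4%, 100% and 100% of Paneth-like cells held a UMI. Outside these classes Ccl6 was near the floor, with 1.41, 2.53 and 4.54 CPM in enterocyte-like cells (38, 54 and 102 UMIs), a level also found in the Krt19 cluster (2.45, 2.49 and 1.92 CPM). The enterocyte-like difference (log2 fold change -1.24, SE 0.32, adjusted p = 0.108, edgeR) did not pass the test, and free RNA from goblet-like cells was not modelled. The 12 myeloid markers moved with it, summing to 1.78, 3.41 and 7.07 CPM in the same cells with Csf1r, C1qa, C1qb and S100a8 at 0 in all 3 libraries, and their part in the difference was not tested. In the Dnase1-led cluster Ccl6 stood at 1.47, 3.8 and 7.48 CPM. A single WT cell of that cluster held 31 of the 102 enterocyte-like UMIs of its library (30.4%), and 10 cells held 66.7%. When the cell highest in Ccl6 was left out of each library, a step added after the data were seen, enterocyte-like cells stood at 1.37, 2.01 and 3.16 CPM. At 21000 UMIs, 2.17%, 4.22% and 3.4% of enterocyte-like cells held a UMI, so that by this share WT was not the highest.

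Il18, the inflammasome-processed cytokine, was highest in enterocyte-like cells at 435, 520 and 400 CPM, followed by the Krt19 cluster at 205, 236 and 203 CPM. The classes did not overlap. ISC-like cells (16.3, 20 and 19.9 CPM) and TA-like cells (9.15, 13.8 and 17 CPM) were far lower, and Paneth-like cells were lowest at 3.06, 1.97 and 4.29 CPM. Over all epithelial cells Il18 stood at 204, 235 and 179 CPM, higher in both cKO libraries, with a log2 fold change of 0.34 (SE 0.11, adjusted p = 0.329, edgeR). The enterocyte-like difference was 0.25 (SE 0.14, adjusted p = 0.488, edgeR). It was not uniform: the Ms4a18-led cluster read 535, 622 and 476 CPM and the S100g-led cluster 407, 490 and 338 CPM, but the Dnase1-led cluster read 351, 459 and 360 CPM, where Arid3a cKO 1 was no higher than WT.

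Nlrp6, the inflammasome sensor, was the one gene of the 8 that was on the same side of WT in both cKO libraries in all 5 comparisons, lower in each. In goblet-like cells it fell from 66.1 CPM (271 UMIs) in WT to 41.5 CPM (127 UMIs) and 43.7 CPM (169 UMIs), a log2 fold change of -0.63 (SE 0.17, adjusted p = 0.0207, edgeR). The counting intervals of WT (58.4 to 74.4) and of both cKO libraries (34.6 to 49.4 and 37.3 to 50.8) did not overlap. These intervals do not cover the spread between cells, and 10 cells held 72.4%, 75.1% and 57.2% of these UMIs. The call was lost with DESeq2 (adjusted p = 1) and when clusters were built without integration (adjusted p = 0.0715).

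Goblet-like cells were nevertheless a minor site of Nlrp6. Enterocyte-like cells were highest at 291, 256 and 339 CPM, a log2 fold change of -0.32 (SE 0.11, adjusted p = 0.247, edgeR). In the Ms4a18-led cluster it stood at 374, 340 and 448 CPM and in the Dnase1-led cluster at 235, 227 and 287 CPM, with counting intervals of cKO below that of WT in both. The Krt19 cluster read 290, 254 and 296 CPM, and Arid3a cKO 1 was within counting error of WT. ISC-like and TA-like cells together read 172, 148 and 194 CPM, a log2 fold change of -0.27 (SE 0.14, adjusted p = 0.694, edgeR). At 21000 UMIs, 97.8%, 97.5% and 98.5% of enterocyte-like cells but 31.4%, 26.5% and 35.7% of goblet-like cells held a Nlrp6 UMI.

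Levels of Ccl25 and Nlrp6 in goblet-like cells rested on few cells. The 10 cells highest in Ccl25 held 69.4%, 70.5% and 61.3% of its goblet-like UMIs, against 3.09%, 4.36% and 3.71% in enterocyte-like cells. The top 5% of doublet scores in each library included 17, 15 and 13 goblet-like cells (13.6%, 11.9% and 9.09%), and in these Ccl25 stood at 490, 495 and 392 CPM. These cells held 392 of 519, 410 of 567 and 222 of 860 goblet-like Ccl25 UMIs, and 97 of 127, 93 of 169 and 89 of 271 Nlrp6 UMIs. Without them Ccl25 stood at 56.3, 51.6 and 181 CPM, a log2 fold change of -1.68 (adjusted p = 3.32e-20, edgeR) in place of -0.41 (adjusted p = 0.328). Nlrp6 stood at 13.3, 25 and 51.5 CPM, a log2 fold change of -1.32 (adjusted p = 8.11e-07, edgeR). Dmbt1 read 145, 60.5 and 283 CPM and Pigr 1101, 1090 and 1503 CPM, and neither passed the test (adjusted p = 0.848 and 0.176, edgeR). Ccl6 and Lypd8, the genes that goblet-like cells expressed at high levels, moved little, to 1299, 1250 and 1173 CPM and to 3585, 3913 and 3772 CPM. Removal of cells by doublet score in goblet-like cells was tried after the data were seen. It took a larger part of the Ccl25 and Nlrp6 UMIs from both cKO libraries than from WT. The part of this unequal removal in the differences was not tested.

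**Figure D5:**
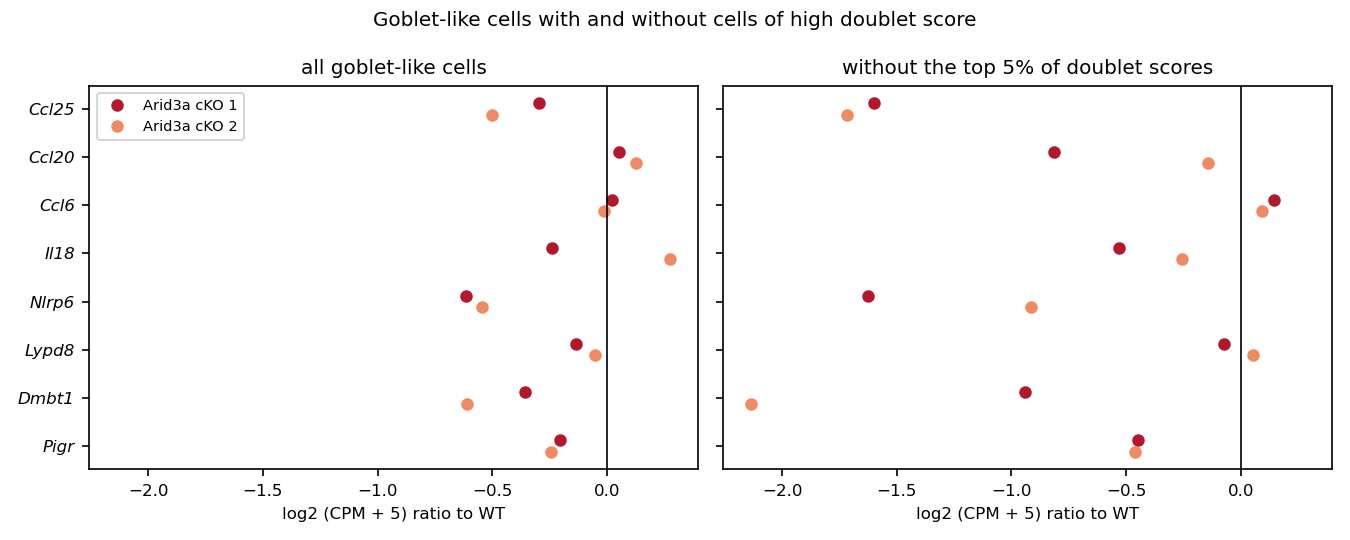
Log2 ratio of CPM + 5 in each Arid3a cKO library to WT in goblet-like cells, with all cells (left) and without the top 5% of doublet scores (right). Each point is 1 library. Ccl25 moves from 170, 147 and 210 CPM to 56.3, 51.6 and 181 CPM, whereas Ccl6 and Lypd8 stay near 0. The removed cells held a larger part of the Ccl25 UMIs in both cKO libraries than in WT.

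Lypd8, which keeps flagellated bacteria off the epithelium, did not differ detectably over all epithelial cells, at 2407, 2440 and 2438 CPM (log2 fold change 0.03, SE 0.11, adjusted p = 0.944, edgeR). It was highest in the Krt19 cluster at 3952, 4523 and 4724 CPM, followed by goblet-like cells at 3451, 3660 and 3791 CPM and enterocyte-like cells at 2904, 2601 and 2918 CPM. The first of these ranges did not overlap the second. Among enterocyte-like cells the Ms4a18-led cluster (4303, 4131 and 4600 CPM) and the Isg15-led cluster (4049, 3872 and 4048 CPM) were high. The Dnase1-led cluster (1879, 1842 and 1972 CPM) and the S100g-led cluster (1878, 1635 and 1706 CPM) were low. Paneth-like cells were lowest, at 176, 182 and 198 CPM.

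Dmbt1, the secreted scavenger receptor protein, followed the crypt side of the epithelium. The Krt19 cluster (1329, 1493 and 1729 CPM), TA-like cells (1288, 1566 and 1372 CPM) and ISC-like cells (1076, 1067 and 1254 CPM) were high, and the ranges of the first 2 overlapped. Enterocyte-like cells stood at 143, 120 and 156 CPM, a log2 fold change of -0.26 (SE 0.11, adjusted p = 0.314, edgeR). Clustering without integration gave -0.5 (adjusted p = 0.000708, edgeR), but for other cells. A cluster led by Ms4a18 (1195 cells) stayed unnamed there and was not counted as enterocyte-like. Among enterocyte-like cells the Dnase1-led cluster was low, at 21.7, 25 and 39.9 CPM, and the Ms4a18-led cluster high, at 285, 254 and 322 CPM. Both cKO libraries were lower than WT in the Krt19 cluster, where the log2 fold change was -0.26 (SE 0.11, adjusted p = 0.462, edgeR). Over all epithelial cells the levels were 684, 744 and 763 CPM.

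Pigr, the transporter of IgA, differed little between groups. It stood at 3093, 3081 and 3027 CPM over all epithelial cells (log2 fold change 0.07, SE 0.11, adjusted p = 0.851, edgeR) and at 4323, 4422 and 4398 CPM in enterocyte-like cells (log2 fold change -0.02, SE 0.18, adjusted p = 0.981, edgeR). Among enterocyte-like cells the S100g-led cluster (5212, 5027 and 5111 CPM) and the small Isg15-led cluster (4776, 5123 and 4918 CPM) were highest, and their ranges overlapped. In the Krt19 cluster both cKO libraries were lower than WT, at 3447, 3610 and 4114 CPM, and in ISC-like and TA-like cells together both were higher, at 2315, 2300 and 2168 CPM, neither of which passed the test (adjusted p = 0.59 and 0.977, edgeR).

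The difference between classes in the cKO effect was tested in a fit with the library as a block, added after the data were seen, for 6 pairs of classes and 8 genes (48 tests, adjusted over all genes of each pair). Of these, 8 passed. The fit leaves 1 residual degree of freedom per gene. Its spread thus comes from the 2 cKO libraries alone and is moderated across genes. The Ccl20 effect was larger in the Krt19 cluster than in enterocyte-like cells by 1.36 on the log2 scale (adjusted p = 0.000377, edgeR, 1 member called of 8 against 0.421% of genes). Against ISC-like and TA-like cells the Krt19 cluster was ahead by 1.02 (adjusted p = 2.39e-08, 0.456% of genes called) and against goblet-like cells by 1.52 (adjusted p = 0.0165, 0.423% of genes called). In each of these pairs both cKO libraries lay further above WT in the Krt19 cluster than in the other class. Ccl20 led the pooled genes of this cluster, which was taken up for testing after the clusters were seen. Within the Krt19 cluster alone the Ccl20 effect did not pass the test. The Ccl25 effect was higher in ISC-like and TA-like cells than in goblet-like cells by 0.78 (adjusted p = 2.24e-06, edgeR, 0.597% of genes called) and lower in goblet-like cells than in the Krt19 cluster by 0.63 (adjusted p = 1.78e-05). The Ccl6 effect was lower in enterocyte-like than in goblet-like cells by 1.26 (adjusted p = 0.000564, edgeR, 0.486% of genes called), and it rests on the WT enterocyte-like level, of which 1 cell held 30.4% of the Ccl6 UMIs. The Pigr effect was higher in ISC-like and TA-like cells than in goblet-like cells by 0.33 (adjusted p = 0.000412, edgeR) and than in the Krt19 cluster by 0.29 (adjusted p = 0.00334). None of the 8 genes passed this test between enterocyte-like cells and ISC-like and TA-like cells (edgeR, 0.721% of genes called, 2 members with an unadjusted p under 0.05, no other tool run). On simulated counts for this pair it recovered 20% of the genes changed 2-fold and 94% of those changed 4-fold, so small differences can be missed.

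The other genes of the same pathways were read from lists. List counts of genes called, or with an unadjusted p under 0.05, stand beside those over all genes given above for each comparison. Among 30 other chemokines, 14 were tested over all cells and 1 was called by edgeR and not by DESeq2 (adjusted p = 0.848), Xcl1 (0, 0.0344 and 1.15 CPM), a lymphocyte chemokine that fell in cells whose T cell markers were also lower in both cKO libraries, and its origin was not tested. Ccl28 and Cx3cl1, which epithelial cells make, read 25.6, 24.2 and 22.7 CPM and 21.5, 19.2 and 21.2 CPM. In goblet-like cells 1 of 6 was called, Ccl9, which stood at 301, 387 and 220 CPM (adjusted p = 0.0205 in edgeR and 1 in DESeq2). Of 7 receptors for the 3 chemokines and for Il18, 3 could be tested over all cells and 0 passed (edgeR, 1 with an unadjusted p under 0.05, 0 called by DESeq2). Ccr9 was at 0.155, 0.206 and 0.287 CPM. The cells had been sorted as CD45-negative, so this test cannot address receptors on leukocytes.

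Of 29 genes of the inflammasome and of Il18 processing, 22 were tested over all cells and 0 were called by edgeR (10 with an unadjusted p under 0.05, 1 called by DESeq2, median log2 fold change -0.1). Pycard, the adaptor that joins Nlrp6 to caspases, read 1088, 1033 and 1075 CPM and Casp1 151, 140 and 129 CPM. In enterocyte-like cells 1 of 20 was called, Il18bp, the secreted inhibitor of Il18, which fell to 2.89 and 2.43 CPM from 5.34 CPM (log2 fold change -1.01, SE 0.23, adjusted p = 0.0455 in edgeR and 1 in DESeq2). Gsdmc4, a pore-forming gasdermin, fell in ISC-like and TA-like cells (5.42, 4.11 and 12.8 CPM, adjusted p = 1.97e-08 in edgeR and 0.0929 in DESeq2) and in the Krt19 cluster (21.1, 17.1 and 45.6 CPM, adjusted p = 0.00178 in edgeR and 0.039 in DESeq2). Gsdmc2 fell with it in the Krt19 cluster (2.45, 2.1 and 8.26 CPM, adjusted p = 0.025 in edgeR), where DESeq2 gave it no adjusted p. Xcl1, Il18bp and Tgm2 were named because they were called in enterocyte-like cells, and the other list genes after their values were seen.

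Of 32 other barrier and antimicrobial genes, 23 were tested over all cells and 1 was called, Pla2g2a, a secreted phospholipase that kills bacteria, which rose to 24.6 and 26.1 CPM from 14.1 CPM (adjusted p = 0.0118 in edgeR and 0.000181 in DESeq2). In enterocyte-like cells 1 of 13 was called, the transglutaminase Tgm2, which fell to 12.3 and 9.64 CPM from 18.8 CPM (adjusted p = 0.0207 in edgeR and 0.443 in DESeq2). Nox1, an oxidase, rose in ISC-like and TA-like cells (7.51, 7.6 and 3.11 CPM, adjusted p = 0.000162 in edgeR and 0.496 in DESeq2). Nos2, the inducible nitric oxide synthase, rose in the Krt19 cluster (4.33, 7.22 and 0.59 CPM, log2 fold change 3.25, SE 0.61, adjusted p = 0.0289 in edgeR), where DESeq2 gave it no adjusted p. The WT cells there held 6776290 UMIs of all genes, so its WT level rests on few UMIs of 1 library. The size of this rise is therefore uncertain. Of 29 genes of cytokine receptors and NF-kB signalling, 24 were tested in the Krt19 cluster and 1 was called: Nfkbia rose there to 442 and 499 CPM from 315 CPM (log2 fold change 0.61, SE 0.12, adjusted p = 0.0345 in edgeR and 0.0198 in DESeq2). The list as a whole had a median log2 fold change of 0.08 there, beside 0.002 over all genes. None of its genes passed the test in the other 4 comparisons (edgeR, 1 to 6 with an unadjusted p under 0.05, 0 called by DESeq2).

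Across 8 classes and 3 libraries (24 points that share libraries, depth and cells), the gene whose log2(CPM + 5) was most like that of each member, among 8442 genes, was Pcsk5 for Ccl25 (Pearson r = 0.986), Rflnb for Ccl20 (r = 0.887), Spink4 for Ccl6 (r = 0.973), Exoc3l4 for Il18 (r = 0.969), Vipr1 for Nlrp6 (r = 0.993), Calu for Lypd8 (r = 0.964), Slc1a1 for Dmbt1 (r = 0.948) and Nfe2l2 for Pigr (r = 0.985). The next were Hdhd3 and Slc39a5 for Ccl25, Tfrc and Bmp3 for Ccl20, Nupr1 and Creb3l4 for Ccl6, Slc9a3 and Reg1 for Il18, Lad1 and Slc39a5 for Nlrp6, Phgr1 and Ppard for Lypd8, Far2 and Tomm5 for Dmbt1, and Selenoi and Sec13 for Pigr. Among the members themselves Ccl25 and Nlrp6 were most alike (r = 0.965), followed by Ccl25 and Pigr (r = 0.948), and Ccl20 was most like Dmbt1 (r = 0.844). Ccl6 ran against the other 7 genes, with r from -0.71 (Nlrp6) to -0.245 (Lypd8).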

How the data were processed

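Intestinal epithelial cells of 2 Arid3a cKO libraries and 1 WT library were profiled by 10x 3′ scRNA-seq. The deposited values are raw UMI counts per gene and barcode, made by the authors with Cell Ranger 5.0.0. The mouse genome build is not given in the sources used here.

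Cells with at least 1000 genes and at most 15% mitochondrial UMIs were kept (5594 of 25554 barcodes). They were integrated and clustered with Seurat 5.3.0 (R 4.3.3, 3000 features, 30 components, resolution 0.3) without the 8 genes, and clusters were named from marker lists. The rule that scored markers was set after the clusters were seen, and 1 cluster of 50 cells with markers of several classes was left out of the classes. Scrublet in scanpy 1.11.5 called 30, 34 and 46 doublets, which were kept. Free RNA was not removed.

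UMIs were summed per library and class and tested with edgeR 4.0.16 (TMM factors, filterByExpr, quasi-likelihood, 1 residual degree of freedom) across all genes with Benjamini-Hochberg adjustment. DESeq2 1.42.0 was an alternative. Fold changes are cKO over WT. For shares of cells, each cell was thinned to 21000 UMIs, which left out 1097 shallower cells. Intervals are exact Poisson or binomial (95%) and cover counting error only. On simulated counts for enterocyte-like cells (12485 genes), 53% of the genes changed 2-fold and 100% of those changed 4-fold were recovered.

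The 8 genes and the gene lists were chosen with earlier results of these data known. Beyond the 8, up to 3 list genes called in each direction in enterocyte-like cells were named by rule. The tests in the Krt19 cluster, the tests between classes, the limit of 5 Ccl20 UMIs and the goblet-like alternatives were added after the data were seen. Coordinates are from GENCODE M21. A result for 1 list gene is not reported here.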

Additional observations from a re-analysis of the deposited data

Results flagged for a closer look

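For 8 of the 48 gene and class-pair combinations tested, the cKO effect differed between classes of cells (edgeR quasi-likelihood test with the library as a block, adjusted over all genes of the pair). Each value is the log2 fold change (cKO over WT) in the first class minus that in the second. For Ccl20 it was -1.36 in enterocyte-like cells against the Krt19 cluster, -1.02 in ISC-like and TA-like cells against the Krt19 cluster and -1.52 in goblet-like cells against the Krt19 cluster. For Ccl25 it was 0.78 in ISC-like and TA-like cells against goblet-like cells and -0.63 in goblet-like cells against the Krt19 cluster. For Ccl6 it was -1.26 in enterocyte-like against goblet-like cells, at enterocyte-like levels under 5 CPM. For Pigr it was 0.33 in ISC-like and TA-like cells against goblet-like cells and 0.29 in ISC-like and TA-like cells against the Krt19 cluster. The classes come from the same 3 libraries, and the 5 differences that involve goblet-like cells were computed with the cells of high doublet score in place. Within the Krt19 cluster alone the Ccl20 effect did not pass the test.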

How the results depend on the processing

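Of 312 alternative fits of a member's log2 fold change, 282 kept the direction and the side of the threshold, 13 newly passed it, 4 no longer passed it and 13 turned the direction. The cause of these changes was not tested. The number of genes called moved from 94 over all epithelial cells to 179 without TMM factors, 583 without the low-count filter and 199 without the 5% highest doublet scores. In enterocyte-like cells it moved from 213 to 87 with DESeq2, 477 without TMM factors, 482 without the filter, 439 at no more than 10% mitochondrial UMIs and 423 without integration. In ISC-like and TA-like cells it moved from 170 to 40 with DESeq2 and 66 without TMM factors, in goblet-like cells from 113 to 14 with DESeq2 and 254 without high doublet scores, and in the Krt19 cluster from 64 to 30 with DESeq2, 127 without TMM factors, 213 without the filter, 150 at the mitochondrial limit and 264 without high doublet scores.

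Members called over all cells moved from 0 to 1 with DESeq2 and without TMM factors (Ccl20), and to 2 without the filter (Ccl20 and Il18). In enterocyte-like cells they moved from 0 to 1 (Ccl6) without TMM factors, without the filter, with wider cell limits (500 genes, 25% mitochondrial UMIs) and at the 10% limit, and to 3 without integration (Ccl6, Nlrp6 and Dmbt1). In ISC-like and TA-like cells they moved from 1 to 0 with DESeq2 and without TMM factors. In goblet-like cells they moved from 1 to 0 with DESeq2 and without integration, and to 2 without high doublet scores. In the Krt19 cluster they moved from 0 to 1 without the filter. The test in this cluster was not repeated under another clustering or with wider cell limits. An unnamed cluster led by Ccl20 was found at a higher resolution (731 cells) and with the members in the clustering (742 cells). With wider limits an unnamed cluster (984 cells) was led by Krt19. Without integration no cluster had Ccl20 among its leading genes. The unnamed cluster there (1195 cells) was led by Ms4a18, with Krt19 further down. Members separated moved from 1 to 0 at a log2 ratio of at least 1 over all cells and in goblet-like cells, and from 0 to 1 with a pseudocount of 1 CPM in ISC-like and TA-like cells. When 1 cKO library was left out they ranged from 0 to 1 in ISC-like and TA-like cells and from 1 to 3 in goblet-like cells, the higher value being that without Arid3a cKO 1.

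The direction turned for Lypd8 over all cells without TMM factors (-0.01) and in enterocyte-like cells with wider cell limits (0.05), for Pigr over all cells with wider limits (-0.04), and for Il18 in ISC-like and TA-like cells without high doublet scores (0.08). In goblet-like cells it turned without high doublet scores for Ccl20 (-0.63), Il18 (-0.39) and Lypd8 (0.05), with wider limits for Il18 (-0.19) and Ccl6 (-0.06), and for Ccl6 without the filter (-0.0), at the 10% limit (-0.01), without integration (-0.06) and with the members in the clustering (-0.01). With equal weight for the enterocyte-like clusters, the mean Ccl20 log2 ratio was -0.39.

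No paired analysis was possible because a single replicate number, 1, occurs in both groups. With 1 WT library, no fit without it can be made, and differences between the groups cannot be told apart from differences between these libraries. Genes under about 5 CPM, such as Ccl6 in enterocyte-like cells, rest on few UMIs.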

Other observations

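Genes induced by interferon gamma were lower in the cKO libraries. In enterocyte-like cells 10 of 21 tested genes of this list fell (median log2 fold change -1.36, edgeR), against 1.69% of all genes called. Cd74, the invariant chain of MHC class II, stood at 61.6, 51.9 and 353 CPM, Igtp at 18, 11.8 and 66.2 CPM and Irgm2 at 5.7, 3.23 and 17.7 CPM (cKO libraries 1 and 2, then WT). In ISC-like and TA-like cells 9 of 20 fell, in goblet-like cells 9 of 18 and in the Krt19 cluster 3 of 17. DESeq2 called 8, 2, 1 and 1 of the tested genes in these 4 comparisons. The T cell markers in enterocyte-like cells summed to 5.18, 37.4 and 60.3 CPM, and their part in the difference was not tested.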
